A study of Homo sapiens with 8 samples.

Results

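The HIF prolyl hydroxylases are the enzymes EGLN1, EGLN2 and EGLN3, also called PHD2, PHD1 and PHD3. Their probe sets were taken from the array table as those whose annotated gene symbol is exactly one of these 3 names, and each was followed over 4 times. The rule found 2 of 22277 probe sets, 1 for EGLN1 (221497_x_at) and 1 for EGLN3 (219232_s_at). EGLN2 had 0 probe sets of its own: the only one that names it (220956_s_at) also carries the readthrough transcript RAB4B-EGLN2, so its values are given as those of the shared probe set and not as a measurement of EGLN2.

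The cells were SJRH30, an alveolar rhabdomyosarcoma line, a childhood muscle-lineage tumour that typically carries a PAX3-FOXO1 fusion. The 8 arrays cover cells before hypoxia (0 h) and cells held for 6, 12 or 24 h at 1% oxygen, and each time has 2 arrays described as biological replicates. All groups are the same single line with no genetic change made, and no cells held in normal oxygen for the same hours were analysed here, so hours in hypoxia and hours in culture cannot be told apart. The question of the design is how transcripts respond at each time.

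In normal oxygen an EGLN enzyme uses molecular oxygen, iron(II) and 2-oxoglutarate to hydroxylate prolines of the HIF alpha subunits. The von Hippel-Lindau protein VHL then binds the hydroxylated subunit and marks it for destruction. When oxygen is short the reaction slows, HIF alpha accumulates and pairs with ARNT, and transcription of HIF target genes rises. EGLN1 and EGLN3 are themselves textbook HIF targets, which closes a feedback loop, while EGLN2 is not usually induced by hypoxia. EGLN1 is regarded as the main HIF hydroxylase of most cells.

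HIF binds short DNA elements with the core ACGTG or GCGTG. Because EGLN1 and EGLN3 both rose here, the 250 bases before each gene's start are printed here, from RefSeq on GRCh38.p14, written 5′ to 3′ in the table's orientation with matches to either core, on either strand, in capitals.
EGLN1, chr1:231422288-231422537, minus strand: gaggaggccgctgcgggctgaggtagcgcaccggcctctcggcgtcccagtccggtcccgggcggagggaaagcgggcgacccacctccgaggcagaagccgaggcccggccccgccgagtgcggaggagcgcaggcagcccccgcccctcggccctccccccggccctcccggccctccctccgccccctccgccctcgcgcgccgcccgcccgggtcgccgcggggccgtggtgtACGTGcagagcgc
EGLN3, chr14:33951075-33951324, minus strand: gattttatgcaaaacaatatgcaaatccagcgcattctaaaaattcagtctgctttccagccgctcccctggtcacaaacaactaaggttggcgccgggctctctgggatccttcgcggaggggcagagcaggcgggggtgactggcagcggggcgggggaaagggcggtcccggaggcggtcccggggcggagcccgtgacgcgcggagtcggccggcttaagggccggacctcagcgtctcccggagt
The search covered windows of 300 bases, from 250 before to 50 after the start. The EGLN1 window held 1 core, an ACGTG on the gene strand that begins 13 bases before the start. The EGLN3 window held 0 matches, which says only that these letters are not in this stretch. EGLN2 has 2 windows in the table. One held an ACGTG on each strand, 48 and 49 bases before the start, and these overlap in a single CACGTG; the other held 0. Of all 35116 windows in the table, 48.4% held ACGTG or GCGTG, 21.4% held ACGTG and 7.26% held CACGTG. Among 34 windows of the comparison HIF targets described further on, 31 held ACGTG or GCGTG. These windows belong to 22 genes, so some genes count more than once. The list was also chosen with results of these data known, so no enrichment is read from this count.

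EGLN1 rose within 6 h and then stayed high. Its deposited values, which are log2 signals summarised per probe set, were 8.08 and 8.14 at 0 h. After 6 h they were 9.67 and 9.56, after 12 h 9.71 and 9.71, and after 24 h 9.60 and 9.59. All 6 hypoxic arrays lay above both arrays of 0 h. How many of all probe sets separate in this way was not counted, so this is a description. In the order of time, the means were 8.11 ± 0.04, 9.62 ± 0.08, 9.71 ± 0.00 and 9.59 ± 0.01 (SD, n = 2 each). Against 0 h the gene rose by 1.51 ± 0.06 at 6 h (log2 change ± SE; limma adjusted p = 2.85e-05), a 2.84-fold rise with a 95% interval of 2.57 to 3.14. The 12 h rise was 1.60 (3.04-fold, limma adjusted p = 1.34e-05), and the 24 h rise was 1.48 (2.80-fold, limma adjusted p = 1.67e-05). Of all probe sets tested, 1.85%, 6.36% and 6.86% were called higher at the 3 times, where a call means an adjusted p under 0.05 over all probe sets. The 3 comparisons share the same arrays of 0 h.

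EGLN3 also rose within 6 h and was higher again at 24 h. Before hypoxia its values were 7.23 and 7.44. After 6 h they were 9.01 and 8.92, after 12 h 9.45 and 9.31, and after 24 h 9.77 and 9.61. The replicates of no time overlapped those of another, and the order of the 4 times was the order of hours in hypoxia. How common this is among all probe sets was not counted. EGLN1 replicates of 6 and 12 h did not overlap either, though that step was not called (limma adjusted p = 0.409). The group means were 7.33 ± 0.15, 8.97 ± 0.06, 9.38 ± 0.10 and 9.69 ± 0.11 (SD, n = 2 each). Against 0 h the log2 change was 1.63 ± 0.10 at 6 h (limma adjusted p = 0.000171), or 3.10-fold with a 95% interval of 2.66 to 3.62. At 12 h it was 2.04 (4.13-fold, limma adjusted p = 3.02e-05), and at 24 h 2.36 (5.12-fold, 95% interval 4.39 to 5.97, limma adjusted p = 1.39e-05). The moderated F-test over the 3 comparisons with 0 h called both genes (limma adjusted p = 2.97e-05 for EGLN1 and 5.08e-05 for EGLN3) among 12.6% of probe sets. Among 11963 genes, each taken by its brightest probe set, the rise of EGLN3 ranked 12, 8 and 6 at the 3 hypoxic times, and the rise of EGLN1 ranked 14, 19 and 27.

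**Figure D1:**
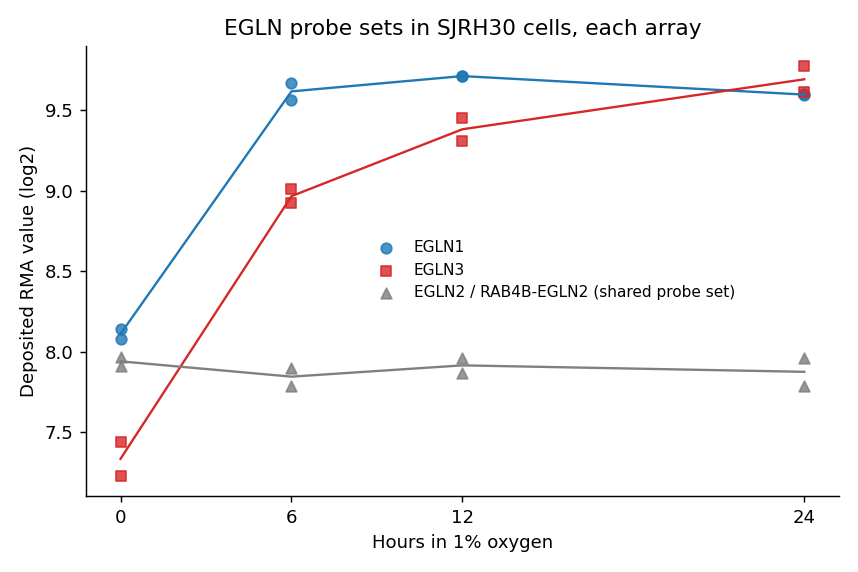
Deposited log2 RMA value (vertical axis) of the EGLN1, EGLN3 and shared EGLN2 and RAB4B-EGLN2 probe sets on each of the 8 arrays against hours in 1% oxygen (horizontal axis); points are arrays and lines join the means of 2 replicates. EGLN1 is near 9.6 to 9.7 from 6 h on, EGLN3 climbs from 7.33 to 9.69, and the shared probe set stays between 7.79 and 7.97; heights of different probe sets are not comparable levels.

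The probe set shared by EGLN2 and RAB4B-EGLN2 had values of 7.91 and 7.97 before hypoxia. After 6 h they were 7.90 and 7.79, after 12 h 7.87 and 7.96, and after 24 h 7.79 and 7.96. The arrays of 12 h and of 24 h overlapped those of 0 h, and those of 6 h lay just below. Its log2 changes were -0.10 (95% interval -0.29 to 0.09), -0.02 (-0.21 to 0.16) and -0.07 (-0.25 to 0.12), with limma adjusted p = 0.608, 0.876 and 0.649. The widest reach of these intervals is the lower bound of -0.29 at 6 h. RAB4B-EGLN2 is a noncoding readthrough RNA in RefSeq, and how much of the signal came from it was not tested.

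Between hypoxic times no EGLN1 difference passed the test, so its levels at 6, 12 and 24 h could not be put in order. The 24 h minus 6 h difference was -0.02 (95% interval -0.17 to 0.12, limma adjusted p = 0.893), and the steps from 6 to 12 h and from 12 to 24 h were 0.10 and -0.12 (limma adjusted p = 0.409 and 0.387). EGLN3 rose from 6 to 24 h by 0.72 ± 0.10, or 1.65-fold (95% interval 1.42 to 1.93, limma adjusted p = 0.019). Only 1.05% of probe sets were called higher in that comparison, and the EGLN3 change ranked 26 of 11963 genes. The shorter steps of EGLN3, 0.41 from 6 to 12 h and 0.31 from 12 to 24 h, did not pass (limma adjusted p = 0.103 and 0.191), so the order of neighbouring hypoxic times was not shown by this test. In these steps 0.117% and 0.144% of probe sets were called. The 6 to 24 h call of EGLN3 needed all 4 arrays compared: the limma adjusted p became 0.145 and 0.162 without 6 h replicate 1 or 2, and 0.102 and 0.0763 without 24 h replicate 1 or 2, while the change stayed between 0.65 and 0.80. At 6 h EGLN1 had reached 102% of its 24 h change and EGLN3 69.3%.

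The difference of EGLN3 minus EGLN1 within each array shows how their responses separated. On the log2 scale it was -0.85 and -0.70 before hypoxia and -0.66 and -0.64 after 6 h. After 12 h it was -0.26 and -0.40, and after 24 h 0.17 and 0.02. The arrays of 6 h lay close to those of 0 h, and later arrays lay higher at each time. With all hypoxic times pooled the difference was 0.48 higher than at 0 h, and the exact two-sided permutation test over 28 arrangements of the arrays gave p = 0.107 (0.107 adjusted over 3 pairs), so unequal response to hypoxia as a whole was not shown. Over the 6 hypoxic arrays alone the difference rose by 0.0406 per hour. Pearson's r with hours was 0.977 (exact permutation p = 0.0111, the smallest that these arrays can give) and Spearman's rho 0.956 (exact permutation p = 0.0222). Without the 24 h arrays, those farthest from the median time, r was 0.954 over 4 arrays at 2 times, which cannot test a trend. This was the 1 relation of its kind computed, chosen after the values were seen, and without 12 h replicate 2 the permutation p was 0.0667. Set against the shared EGLN2 and RAB4B-EGLN2 probe set on the same array, the EGLN3 difference moved from -0.61 at 0 h to 1.47 in hypoxia, a shift of 2.07. The EGLN1 difference moved from 0.17 to 1.76, a shift of 1.59. The shifts describe change within arrays and say nothing of which transcript was more abundant. Both shifts gave an exact permutation p of 0.0357, the smallest that 2 against 6 arrays allow, and 0.0536 after adjustment over 3 pairs. Neither passed 0.05 after adjustment. With the EGLN3 minus EGLN1 pair at 0.107, however, 0.0536 was the lowest adjusted value that these 2 pairs could reach. This test therefore could not decide whether the changes were unequal.

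**Figure D2:**
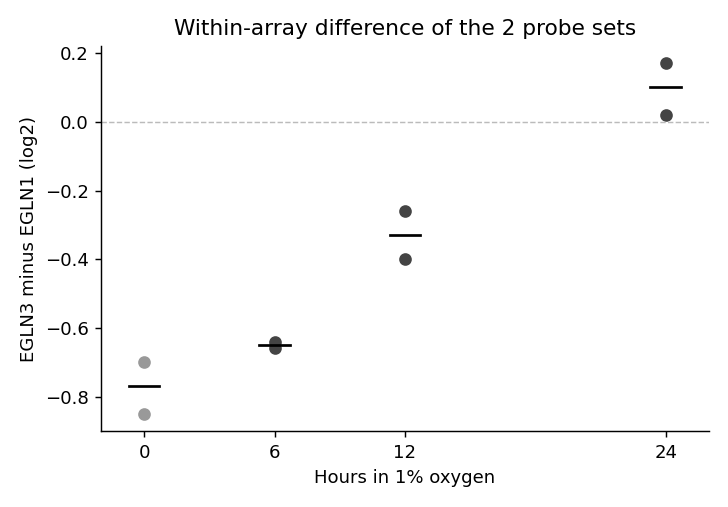
Log2 value of EGLN3 minus that of EGLN1 on the same array (vertical axis) against hours in 1% oxygen (horizontal axis); points are arrays, black bars the mean of 2 replicates. From left to right the means are -0.77, -0.65, -0.33 and 0.10.

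The other genes of the oxygen-sensing pathway were counted in the same fit. Of 16 partner genes (HIF subunits, the VHL ubiquitin ligase, factor inhibiting HIF and co-activators), 0 were called higher at any hypoxic time against 0 h, and 1, 2 and 2 were called lower at 6, 12 and 24 h, where 1.95%, 6.55% and 7.86% of all genes were called higher and 0.878%, 10.3% and 8.02% lower. The lower calls at 12 and 24 h are near that background. The list medians were -0.04, -0.06 and -0.02, against -0.02, 0.00 and -0.01 for all genes. EPAS1, which encodes HIF-2 alpha, fell at each time; its values were 9.89 and 9.85 at 0 h and between 9.41 and 9.60 on the hypoxic arrays. Its log2 changes were -0.38, -0.44 and -0.30 (limma adjusted p = 0.0326, 0.00627 and 0.025). ELOC, the elongin C subunit of the VHL ligase, fell by 0.31 at 12 h, and the co-activator gene CREBBP fell by 0.31 at 24 h. HIF1A, whose protein is the main EGLN substrate, was at -0.02, -0.09 and -0.11. Its partner ARNT was at 0.12 at 24 h, and HIF1AN, the asparagine hydroxylase that blocks co-activator binding, was at -0.04, 0.03 and -0.01. VHL itself was at 0.17, 0.14 and 0.19 (limma adjusted p = 0.209, 0.148 and 0.0818) on a dim probe set near 3.17 at 0 h. P4HTM, a membrane-bound relative of the EGLN enzymes, was at 0.03, -0.13 and -0.04. None of these last 5 genes passed at any time, and in the 3 comparisons between hypoxic times 0 of the 16 partners were called in limma. With an intensity trend in the prior 1 of the 16 partners was called in each of these 3 comparisons. Of 22215 probe sets 1241, 711 and 1568 were called from 6 to 12, 12 to 24 and 6 to 24 h. Here and in later lists, backgrounds of such other settings count all probe sets tested, not genes by their brightest probe set. Without the dimmest 50% of probe sets 1 of the 12 partners left was called from 6 to 12 h. There 1231 of 11107 probe sets were called. Single calls in lists this short are near that background.

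Among genes whose proteins are reported to bind or regulate EGLN proteins, 11 of 14 were measured; 1, 2 and 2 were called higher (all genes 1.95%, 6.55% and 7.86%) and 0, 1 and 1 lower (all genes 0.878%, 10.3% and 8.02%) at 6, 12 and 24 h. The 1 lower call at 12 and at 24 h is about the background. With an intensity trend 2 were called higher and 1 lower at 6 h, where 1065 and 846 of 22215 probe sets were. SIAH2, a ubiquitin ligase that targets EGLN proteins, had values of 8.26 and 8.21 at 0 h. On the hypoxic arrays it ran from 8.53 to 8.65. Its log2 changes were 0.33, 0.31 and 0.37 (limma adjusted p = 0.0352, 0.0145 and 0.0072). Its relative SIAH1 was at -0.08, -0.09 and -0.06 and did not pass. LIMD1, a scaffold that brings EGLN1 and VHL together, was at 0.41 at 6 h (limma adjusted p = 0.0849) and rose by 0.55 at 12 h and 0.40 at 24 h. The chaperone gene HSP90AB1 fell by 0.28 at 12 h and at 24 h. FKBP8, whose protein lowers the stability of EGLN1, was at 0.01, 0.22 and 0.11 and did not pass. The list medians were 0.04, 0.06 and -0.03.

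Proteins proposed as EGLN substrates other than HIF alpha had 14 of 17 genes measured, with 1, 2 and 3 called higher and 1, 2 and 3 lower. Over all genes the shares were 1.95%, 6.55% and 7.86% higher and 0.878%, 10.3% and 8.02% lower, and the 2 lower calls at 12 h are close to theirs. ATF4, the stress-response transcription factor, fell by 0.50, 0.73 and 0.77. ACTB, the beta-actin gene, fell by 0.36 at 12 h and 0.38 at 24 h. CEP192, a centrosome protein gene, rose by 0.41, 0.35 and 0.36. ZHX2, a transcriptional regulator gene, rose by 0.24 at 12 h and 0.32 at 24 h. NDRG3 rose by 0.25 and KIF1B fell by 0.28 at 24 h. PKM, the pyruvate kinase gene, was at -0.12, -0.04 and -0.02 on its brightest probe set and did not pass. Its other probe set was called higher at all 3 times. The list medians were -0.05, -0.14 and -0.06.

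EGLN1 and EGLN3 belong to a large superfamily of dioxygenases that all need oxygen, iron(II) and 2-oxoglutarate. Of 53 other genes listed for it, 46 were measured, HIF1AN and P4HTM among them. Called higher were 10, 14 and 13 of them at the 3 times, where 1.95%, 6.55% and 7.86% of all genes were. Called lower were 0, 2 and 1, where 0.878%, 10.3% and 8.02% of all genes were. The list medians of 0.04, 0.02 and 0.01 were near those of all genes. PLOD2, a collagen lysyl hydroxylase gene, rose by 1.72, 1.81 and 1.67. P4HA1, the catalytic subunit of a collagen prolyl hydroxylase, rose by 1.45, 1.80 and 1.58. The histone demethylase gene KDM3A rose by 1.47, 1.52 and 1.36, and TET1, a DNA demethylation enzyme gene, by 1.12, 1.38 and 1.25. PLOD1 rose by 0.74, 0.99 and 0.95 and KDM4B by 0.57, 0.75 and 0.72. At 24 h the EGLN3 change of 2.36 lay above all 46, and the EGLN1 change of 1.48 below those of PLOD2 and P4HA1; these orders were not tested. From 6 to 24 h 0 of the 46 passed in limma. With an intensity trend 3 were called higher and 3 lower, where 776 and 792 of 22215 probe sets were. Without the dimmest 50% of probe sets 4 and 3 of the 38 left were, where 773 and 764 of 11107 probe sets were. That last setting also called 15 higher and 2 lower at 6 h, where 1089 and 989 of 11107 probe sets were.

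**Figure D3:**
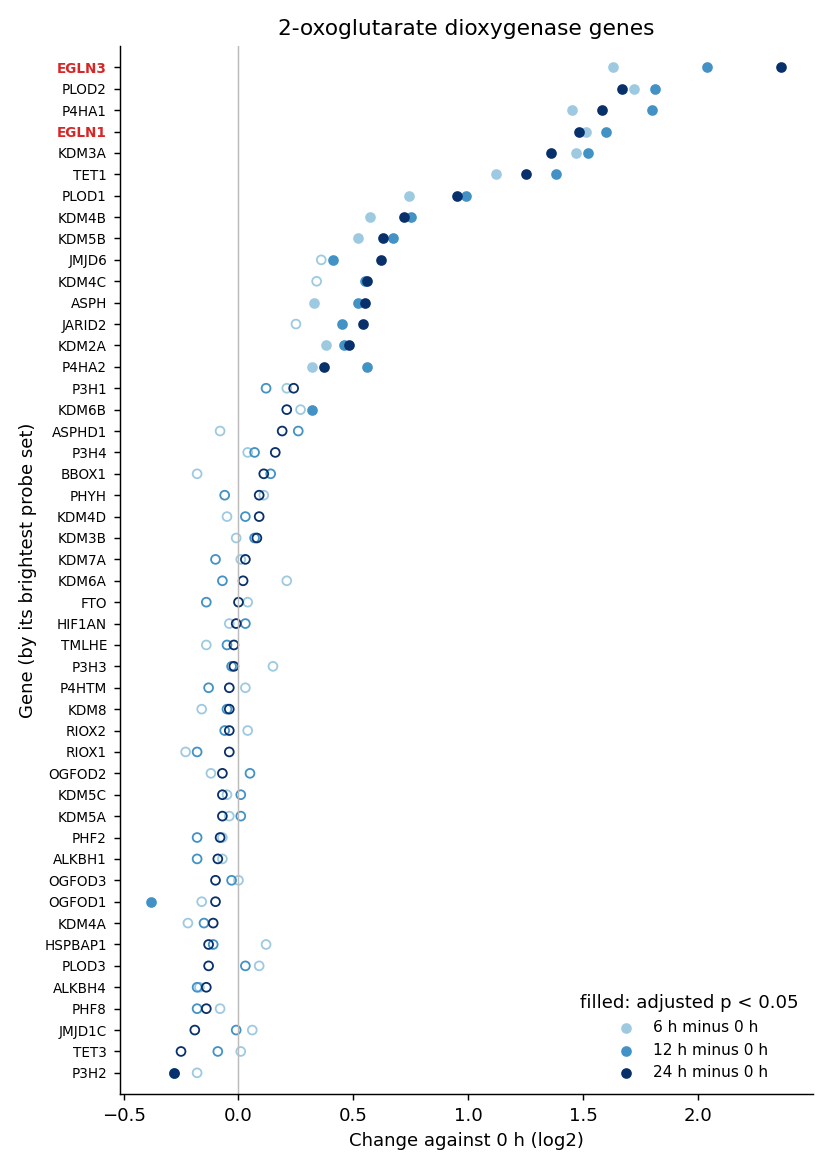
Log2 change against 0 h (horizontal axis) at 6, 12 and 24 h (light to dark points) for EGLN1, EGLN3 and 46 other 2-oxoglutarate dioxygenase genes (vertical axis, sorted by the 24 h change); filled points have a limma adjusted p under 0.05. EGLN3 is at the top with 2.36 at 24 h, and most of the genes lie near 0.

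Genes for the co-substrate and cofactors of the reaction were also counted. In 2-oxoglutarate, succinate and fumarate metabolism 22 of 29 genes were measured; 1, 2 and 2 were called higher and 1, 6 and 3 lower, with medians of -0.03, -0.14 and -0.09. All genes gave 1.95%, 6.55% and 7.86% higher and 0.878%, 10.3% and 8.02% lower. The lower calls became 3, 10 and 9 with an intensity trend, where 846, 3237 and 2541 of 22215 probe sets were called lower. Without the dimmest 50% of probe sets they became 2, 11 and 9, where 989, 3111 and 2498 of 11107 probe sets were. The counts at all 3 times thus depend on the setting, and those of all probe sets moved too. OGDH, a subunit of the complex that consumes 2-oxoglutarate, fell by 0.37, 0.57 and 0.70. IDH3A, a subunit of the mitochondrial enzyme that makes it, fell by 0.70 at 12 h and 0.50 at 24 h. IDH2 rose by 0.27 at 12 h and 0.44 at 24 h, while IDH1, the cytosolic enzyme gene, was at 0.14, 0.06 and 0.04 and did not pass. GOT1, an aspartate aminotransferase gene, fell by 0.34 and 0.30 at the later times. CS, the citrate synthase gene, fell by 0.31 at 12 h. LDHA, a HIF target, rose by 0.53, 0.67 and 0.66. Of 22 genes of iron and ascorbate supply 16 were measured, with 0, 1 and 0 called higher and 1, 2 and 1 lower, and medians of -0.03, -0.02 and -0.01. Against the same shares of all genes, the lower calls at 12 and 24 h are about the background. At 24 h 1 was called higher and 3 lower with an intensity trend, where 2130 and 2541 of 22215 probe sets were. HMOX1, which frees iron from heme, fell by 0.74, 0.92 and 0.79. TFRC, the transferrin receptor gene, rose by 0.25 at 12 h, while its changes of -0.01 at 6 h and 0.13 at 24 h did not pass. GLRX3, an iron-sulphur glutaredoxin gene, fell by 0.24 at 12 h. The ascorbate transporter gene SLC23A2 was at -0.09, -0.16 and -0.14 and did not pass.

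EGLN1 and EGLN3 were set beside 25 well known HIF targets, 23 of them measured. The list was chosen with results of these data known, so its counts and the places of EGLN1 and EGLN3 in it are descriptions. Of these 18, 21 and 20 were called higher at 6, 12 and 24 h, where 1.95%, 6.55% and 7.86% of all genes were. Called lower were 0, where 0.878%, 10.3% and 8.02% of all genes were. The list medians were 1.47, 1.77 and 1.59. The largest changes were those of SPAG4 (3.59 at 24 h), the mitophagy gene BNIP3 (3.33 at 12 h), TMEM45A (2.74 at 24 h), the pyruvate dehydrogenase kinase gene PDK1 (2.42 at 24 h), the mTOR inhibitor gene DDIT4 (2.34 at 6 h) and AK4 (2.14 at 24 h). From 6 to 24 h 6 of the 23 were called higher, against 1.25% of all genes. With an intensity trend 11 of the 23 were called higher, where 776 of 22215 probe sets were. Without the dimmest 50% of probe sets 10 of the 20 left were, where 773 of 11107 probe sets were. Named after their values were seen, the 6 called without these changes of setting were SPAG4 (2.07), TMEM45A (0.68), AK4 (0.66), PGK1 (0.61), ENO1 (0.56) and NDRG1 (0.42). The later change of EGLN3, 0.72, lay above 22 of the 23 targets and below SPAG4, a nuclear envelope protein gene. That of EGLN1, -0.02, lay below 15 and above 8. These orders were not tested, and the EGLN3 change, with an SE of 0.10, lay close to those of TMEM45A and AK4. The 20 targets called higher at 24 h had reached a median of 84.9% of their 24 h change by 6 h, with a range from 25.6% for the glycolytic gene ENO1 to 110% for the hexokinase gene HK2. HK2 has another probe set, which was called in the opposite direction at 12 and 24 h. 

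**Figure D4:**
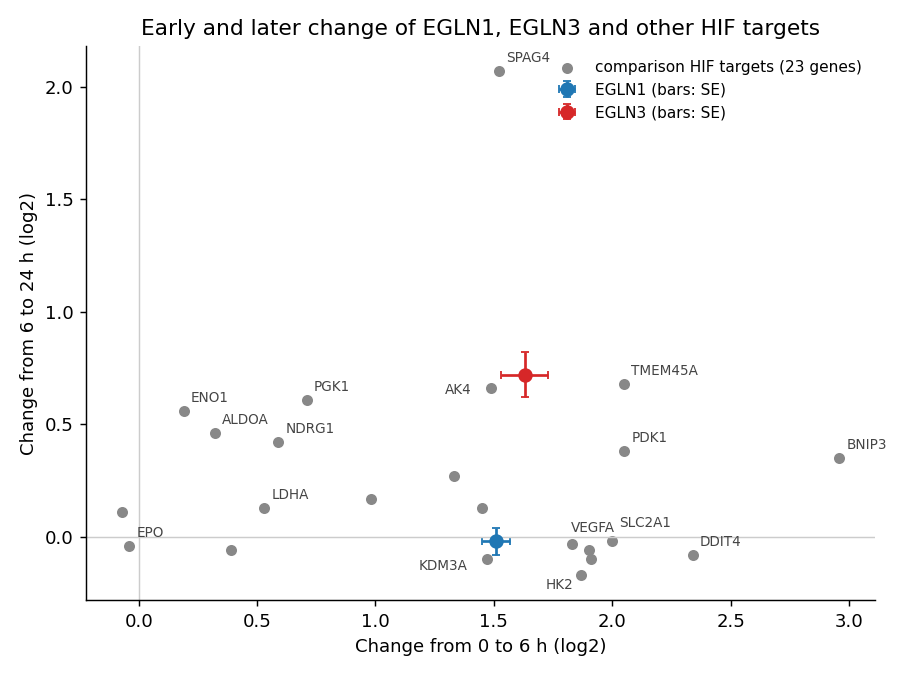
Log2 change from 0 to 6 h (horizontal axis) and from 6 to 24 h (vertical axis) of EGLN1 (blue), EGLN3 (red; bars are the SE of the fit) and 23 other HIF targets (grey), each from 2 arrays per time. EGLN1 and EGLN3 lie at 1.51 and 1.63 on the horizontal axis, and at -0.02 and 0.72 on the vertical axis.

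The transcripts that moved most like each gene over the 8 arrays are named here for each member. Likeness was the Pearson correlation among 1094 single-symbol probe sets whose time means spanned at least 0.5. All 8 arrays share the split between 0 h and hypoxia, so any lasting rise gives a high r, and the values are descriptions. Closest to EGLN1 were the glucose transporter gene SLC2A1 (r = 0.9986), PLOD2 (0.9975), the cyclin gene CCNG2 (0.9970), KDM3A (0.9965) and the angiogenic factor gene VEGFA (0.9962). Their log2 changes at 6 and 24 h were 2.0 and 1.98 for SLC2A1, 1.72 and 1.67 for PLOD2, 1.09 and 1.09 for CCNG2, 1.47 and 1.36 for KDM3A, and 1.90 and 1.84 for VEGFA. Closest to EGLN3 were the insulin receptor gene INSR (r = 0.9980), CRYBG3 (0.9973), DPY19L2P2 (0.9968), the mitochondrial adenylate kinase gene AK4 (0.9963) and the secreted glycoprotein gene STC1 (0.9956). Their changes at 6 and 24 h were 0.42 and 0.62 for INSR, 0.45 and 0.71 for CRYBG3, 0.83 and 1.16 for DPY19L2P2, 1.54 and 2.23 for AK4, and 2.09 and 3.37 for STC1. EGLN1 and EGLN3 had r = 0.9530 with each other, where EGLN3 ranked 98 by likeness to EGLN1 and EGLN1 ranked 155 by likeness to EGLN3. By the size of the difference, as a root mean square over arrays, KDM3A was closest to EGLN1 (0.0883), then VLDLR, MXI1, P4HA1 and PNRC1, and AK4 was closest to EGLN3 (0.104 and 0.139 for its 2 probe sets), then INSIG2, PLOD2 and STC1.

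Array-wide measures bear on these values as follows. The labels give the cell type as muscle fibroblasts. Of 10 skeletal muscle and rhabdomyosarcoma markers 9 lay above the median of all probe sets at 0 h (6.71), with MYOD1 at 12.08, FGFR4 at 11.41 and MYF5, at 4.12, below it. Of 8 fibroblast markers 2 did, COL3A1 and COL1A1, and 0 of the 5 epithelial, 4 endothelial and 3 leukocyte markers measured did. Called marker changes were those of COL3A1 (0.34 at 6 h and 0.22 at 12 h), MYF5 (0.35 at 12 h) and, at 24 h, MYOG (0.31), CDH15 (-0.33), ACTC1 (-0.20) and EPCAM (0.41). Their part in the EGLN results was not tested. Spiked poly-A control transcripts (24 probe sets) exceeded their 0 h mean by 0.47, 0.43 and 0.65 at 6, 12 and 24 h, and 18 hybridisation control probe sets did so by 0.25, 0.19 and 0.19; the part of these controls was not tested either. The suffix of the EGLN1 probe set marks probes that may also match other transcripts, and RefSeq lists a pseudogene of EGLN1 and one of EGLN3. Signals come from whole cultures, so more cells with a transcript and more transcript per cell cannot be told apart.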

How the data were processed

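Biotin-labelled target from 10 µg of total RNA was hybridised to an Affymetrix array whose probes lie near transcript 3′ ends, per the labels' protocols. RMA, named in the submitters' processing notes, gave the log2 value of each probe set that the authors deposited; its version is not given in the sources used here. RMA usually equalises the distributions of the arrays, so changes are relative to the other transcripts of an array. The deposited arrays were not fully equal. Interquartile ranges of the 12 h arrays were 3.68 and 3.63, and those of the other arrays 3.77 to 3.81. After further quantile normalization the EGLN3 steps were 0.47 from 6 to 12 h and 0.26 from 12 to 24 h, against 0.41 and 0.31. Symbols came from a platform annotation of 2016 and were updated through a RefSeq table of GRCh38.p14. The 62 control probe sets were kept apart, and 22215 were tested without a filter on dim signals.

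Means of the 4 times were fitted with limma 3.58.1 in R 4.3.3 (lmFit, eBayes; 4 residual and 3.70 prior degrees of freedom). Tests were two-sided and adjusted by Benjamini-Hochberg within a comparison over all probe sets. P-values measure only the spread between replicates, 2 at each time, whose separate cultures the labels do not describe. Precision is limited by the number of arrays. On simulated data shaped like 6 h against 0 h, with 200 of 22215 probe sets changed in 20 simulations, 53.9%, 91.8% and 99.5% of changes of 0.5, 1 and 2 (log2) were called and 4.68% of calls were false. The simulated noise was normal and independent between probe sets, and only 6 h was changed. These rates therefore need not hold for the arrays themselves.

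The members, lists and tests were chosen with earlier results of these data known. List genes were represented by their brightest single-symbol probe set. Backgrounds under the alternative settings count all probe sets tested, so they are not matched to the list genes in brightness. Named from each list were up to 6 called genes with the largest changes, and central uncalled genes; the 5 most alike probe sets were named for each member. The test of EGLN3 minus EGLN1 against hours was added after the values were seen.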

Additional observations from a re-analysis of the deposited data

How the results depend on the processing

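The rises of EGLN1 and EGLN3 against 0 h were called under every alternative run, with limma adjusted p of at most 0.00871 (EGLN3 at 12 h, only the groups compared). Leaving out 1 array gave EGLN3 changes from 6 to 24 h of 0.65 to 0.80, and EGLN1 changes over the same step of -0.08 to 0.03, the 0.03 without 6 h replicate 1. The EGLN3 minus EGLN1 slope ran from 0.0374 to 0.0455 per hour, and was 0.0403 after further quantile normalization. With an intensity trend in the prior, EGLN3 also passed from 6 to 12 h (0.41, limma adjusted p = 0.0102) and from 12 to 24 h (0.31, limma adjusted p = 0.0469). Without the dimmest 50% of probe sets it passed from 6 to 12 h (0.41, limma adjusted p = 0.0205). The shared EGLN2 and RAB4B-EGLN2 probe set, never called, was at 0.03 at 12 h after further quantile normalization. Without 1 array it ranged from -0.07 to 0.02 at 12 h, -0.16 to 0.02 at 24 h, -0.13 to 0.04 from 12 to 24 h and -0.06 to 0.12 from 6 to 24 h. Replicates with the same number did not deviate together (correlations from -0.13 to 0.08), so the numbers were not taken as pairs. With the replicate block EGLN3 kept its 6 to 24 h call (limma adjusted p = 0.0439), and 334, 0, 0 and 129 probe sets were called at 6 h and from 6 to 12, 12 to 24 and 6 to 24 h, against 600, 26, 32 and 328. In these 4 comparisons an intensity trend gave 1911, 1241, 711 and 1568, no dimmest 25% gave 1051, 236, 185 and 768, and no dimmest 50% gave 2078, 1231, 709 and 1537. The moderated F called 2796, and 5533 and 5101 with the trend or without the dimmest 50%. Fits of only the groups compared called 0 from 6 to 12 h and 0 from 12 to 24 h in limma, 171 from 6 to 24 h and 2294 at 12 h. At an unadjusted p under 0.05, 4183 and 2291 passed in the first 2 of these, and 4378 and 3404 with the block. The gene-level table, with fewer features, called 2202 at 12 h and 2123 at 24 h, against 3602 and 3257. From 12 to 24 h, 74 were called after further quantile normalization and 62 after median centring. Leaving out 1 array gave 84 to 650 calls at 6 h, 857 to 3949 at 12 h, 951 to 3516 at 24 h and 417 to 3668 by the moderated F. Between hypoxic times it gave 0 to 1117 (the latter without 12 h replicate 1) from 6 to 12 h, 0 to 302 from 12 to 24 h and 19 to 452 from 6 to 24 h. The causes of these differences were not tested.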
